A study of Mus musculus with 9 samples.

Results

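The ribosomal protein genes of the mouse were followed here as a group of open chromatin regions. They were the protein-coding genes of mm10 with a symbol of Rpl or Rps and a digit, together with Rplp0, Rplp1, Rplp2 and Rpsa, without the Rps6k kinases and pseudogene symbols, which gave 89 of 21631 protein-coding genes. By their names, 31 of the 89 belong to the small subunit, 43 to the large subunit and 3 to the stalk, and 12 are paralogs or carry a related symbol (such as Rpl22l1, Rpl3l or Rps19bp1). Their regions were all those that overlapped the gene body or lay within 1 kb of a gene end. That gave 111 of 62963 regions, where a region is a stretch covered by peaks of any of the 9 lists, merged wherever peaks shared at least 1 base.

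Chromatin accessibility had been measured by ATAC-seq, in which Tn5 transposase cuts into open DNA and leaves sequencing adapters there. The cells were wild-type P14 CD8 T cells of C57BL/6 background. The transgenic receptor of P14 cells recognizes a glycoprotein epitope of lymphocytic choriomeningitis virus, and the donors also carried a GFP reporter for TCF-1. Per the labels, 500000 naive CD44-negative, GFP-positive P14 cells were given to mice with a subcutaneous B16.F10 melanoma expressing that glycoprotein, 8 days after the tumor cells. CD45.1+CD44+ CD8 T cells were sorted from the tumor-draining lymph nodes 4, 8 or 21 days after transfer, in 3 libraries per day of 50000 cells each. All groups share the tumor, the transgenic receptor, the reporter and the sort, and neither the animals' age nor any pooling is given in the sources used here. Titles supplied the day, since the genotype tag holds the day and the time point tag holds the genotype. Per the labels it is unknown if same-day libraries are from different mice, so the p-values below measure the spread between these libraries, which may be technical.

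Ribosomal proteins assemble with ribosomal RNA into the small subunit, which reads the mRNA, and the large subunit, which forms peptide bonds. Activated T cells build many ribosomes as they grow and divide, and the synthesis of ribosomal proteins is controlled to a large part at translation. Most ribosomal protein mRNAs begin with a C followed by an unbroken run of pyrimidines (a terminal oligopyrimidine tract), through which the kinase mTORC1 and the protein LARP1 regulate their translation.

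The sequences around the transcription start of the genes that the results turn on come from RefSeq on GRCm38.p6, the assembly of mm10. Of the 89 genes, 69 had an entry. Each line runs 5′ to 3′ from 100 bases before to the 20 bases that begin at the annotated start. Capitals mark every match, on either strand, to CCGGAA (the core of ETS factor motifs), CCATNTT (YY1), GGGCGG (SP1), TATAAA or TATATA (both taken as the TATA box of the core promoter), CACGTG (E-box) and GCATGCG (NRF1), and also the start tract, defined as a C within 5 bases of the annotated start followed by at least 4 bases of C or T. Matches may overlap or adjoin, and then share 1 run of capitals, as in Rps15a, where the YY1 match runs into the start tract. The genes whose strongest region ranked highest among all members were these.
Rpl31 (chr1:39367751-39367870, plus strand): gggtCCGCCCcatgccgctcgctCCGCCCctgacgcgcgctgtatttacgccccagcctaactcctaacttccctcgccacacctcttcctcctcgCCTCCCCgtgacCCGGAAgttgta
Rpl27 (chr11:101442145-101442264, plus strand): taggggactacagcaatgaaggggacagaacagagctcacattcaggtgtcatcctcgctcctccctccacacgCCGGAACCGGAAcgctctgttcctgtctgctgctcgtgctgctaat
Rpl22l1 (chr3:28805408-28805527, plus strand): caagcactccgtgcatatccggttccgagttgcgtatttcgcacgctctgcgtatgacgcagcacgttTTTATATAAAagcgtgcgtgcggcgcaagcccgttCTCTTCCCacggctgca
Rps26 (chr10:128626487-128626606, minus strand): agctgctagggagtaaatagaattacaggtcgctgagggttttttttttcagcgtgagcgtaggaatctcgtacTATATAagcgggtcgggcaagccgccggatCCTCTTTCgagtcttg

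Genes whose regions were among those that changed most in rank between days, together with the stalk gene Rplp2, were these.
Rplp0 (chr5:115559367-115559486, plus strand): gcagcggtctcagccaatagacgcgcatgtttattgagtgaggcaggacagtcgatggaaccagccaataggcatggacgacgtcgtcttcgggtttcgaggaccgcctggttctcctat
Rplp2 (chr7:141447551-141447670, plus strand): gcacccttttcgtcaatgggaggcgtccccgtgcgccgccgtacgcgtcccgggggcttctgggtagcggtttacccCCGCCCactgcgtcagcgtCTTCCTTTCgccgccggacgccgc
Rpsa (chr9:120127666-120127785, plus strand): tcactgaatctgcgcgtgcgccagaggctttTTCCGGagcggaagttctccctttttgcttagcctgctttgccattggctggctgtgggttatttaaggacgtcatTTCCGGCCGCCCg
Rpl13a (chr7:45128726-45128845, minus strand): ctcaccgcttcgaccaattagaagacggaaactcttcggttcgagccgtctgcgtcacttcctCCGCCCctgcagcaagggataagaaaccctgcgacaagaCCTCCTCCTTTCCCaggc
Rpl35 (chr2:39005112-39005231, minus strand): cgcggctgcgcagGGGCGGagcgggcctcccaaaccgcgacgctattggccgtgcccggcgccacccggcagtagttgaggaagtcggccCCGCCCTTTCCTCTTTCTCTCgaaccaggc
Rps15a (chr7:118116128-118116247, minus strand): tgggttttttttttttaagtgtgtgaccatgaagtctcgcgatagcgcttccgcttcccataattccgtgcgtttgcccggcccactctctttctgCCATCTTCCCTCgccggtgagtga
Rpl38 (chr11:114668480-114668599, plus strand): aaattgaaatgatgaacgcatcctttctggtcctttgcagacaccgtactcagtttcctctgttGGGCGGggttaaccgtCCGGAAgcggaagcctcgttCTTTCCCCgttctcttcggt

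In the full window of 250 bases before to 50 after the start, the start tract was found at 31 of the 69 members, or 44.9%, against 18.9% of 17274 protein-coding promoters. Its median length in those 31 was 8 bases, and 34.8% of the 69 members had a C as the first base, against 13.9% of all promoters. CCGGAA was present in 49.3% of the members and 19.5% of all promoters, and CCATNTT in 29.0% and 15.5%. Promoters in open chromatin are a closer comparison: among the 6596 genes whose start lay in a region called in all 9 lists, 36.3% held CCGGAA, 16.3% held CCATNTT and 19.9% had a start tract. GGGCGG was found in 58.0% of the members, in 70.7% of those 6596 and in 47.4% of all promoters. TATAAA or TATATA was found in 18.8% of the members, in 6.97% of those 6596 and in 16.1% of all promoters. CACGTG was found in 7.25% of the members, 11.4% of the 6596 and 7.93% of all promoters, and GCATGCG in 5.80%, 8.22% and 4.57%. The nuclear genes of mitochondrial ribosomal proteins had CCGGAA in 56.5% of 69 promoters but a start tract in 21.7%. A match describes the letters in this window and does not show that a factor binds.

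**Figure D1:**
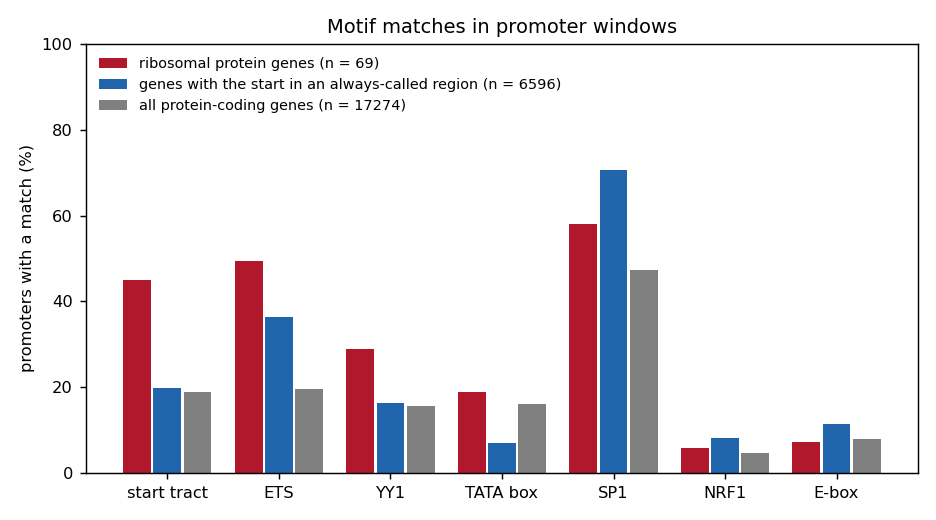
Share of promoter windows (%, 250 bases before to 50 after the annotated start) with a match to each motif on either strand, for ribosomal protein genes, for genes whose start lies in a region called in all 9 lists, and for all protein-coding genes. The start tract, at 44.9% of the ribosomal protein genes against 19.9% and 18.9%, stands above both comparison groups. So do the ETS core, at 49.3% against 36.3% and 19.5%, and YY1, at 29.0% against 16.3% and 15.5%. The TATA box, at 18.8%, is above 6.97% and near 16.1%.

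Ribosomal protein genes had a called region on every day, apart from a few paralogs. Of the 89 genes, 84 had at least 1 region (59 had 1, 22 had 2, and 3 had 3, Rpl4 and Rpl36 among them). The 5 without any were Rps23rg1, Rps27rt, Rpl32l, Rpl10l and Rpl39l. Rpl10l and Rpl39l are known for expression in the male germ line. The strongest region of each gene, taken as the one with the highest mean fold enrichment over the lists, is called its main region below. It was called in all 9 lists for 81 genes, or 91.0%, against 47.8% of all protein-coding genes. All 31 small subunit genes, all 3 stalk genes and 41 of 43 large subunit genes were among these 81. The exceptions in the large subunit were Rpl19 and Rpl8, each called in 2 of 3 day 4 lists and in every later list. Rpl37rt was called in 0 of 3 lists on day 4, 2 of 3 on day 8 and 3 of 3 on day 21.

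Of the 111 regions, 87 (78.4%) were called in all 9 lists, against 24.0% of the 62963 regions and 29.0% of those in or near a protein-coding gene. Each of the 9 lists called 90, 90 and 91 of the 111 regions on day 4, 105, 105 and 105 on day 8, and 103, 105 and 106 on day 21. The day 4 lists were shorter, with 19499 to 22250 peaks on chromosomes 1 to 19 and X, against 47513 to 50835 on day 8 and 46492 to 51671 on day 21. Over all regions in or near protein-coding genes, 33.4% to 37.5% were called per day 4 list, 74.5% to 79.6% per day 8 list and 72.8% to 80.7% per day 21 list. The ribosomal protein regions stood at 81.1% to 82.0%, at 94.6% in each day 8 list, and at 92.8% to 95.5%. When only the 19499 strongest peaks of each list were kept, the mean number of ribosomal protein regions called was 89.3 on day 4, 81.3 on day 8 and 78.0 on day 21, so their growth in number with day was not seen at equal list length. Local background, which scales with a library's reads, was at its smallest 2.62 to 3.38 tags on day 4, 2.14 to 2.63 on day 8 and 2.33 to 3.08 on day 21, and read totals are not in the lists.

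Most regions sat on the start. Of the 87 always-called regions, 61 held an annotated start of their ribosomal protein gene, 19 belonged to genes whose start is not in the promoter table, and 7 held only the start of a neighbour. In those 7 (for example Rpl41 with Zc3h10, Rpl18 with Sphk2, Rpl36 with Micos13 and Rpl4 with Snapc5), and in all 32 regions shared with another protein-coding gene, accessibility cannot be assigned to either gene. Of the 24 regions missing from at least 1 list, 16 held no annotated start, and only that of Rpl19 held the start of its member. For the 58 genes whose main region held the start, the peak summit lay a median of 49 bases upstream of it on day 4, 36 on day 8 and 42.5 on day 21. Summits fell within 100 bases of the start for 70.7%, 81.0% and 81.0% of these genes on days 4, 8 and 21, against 63.8%, 67.1% and 66.9% of the 6596 genes.

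A region was counted as gained when all 3 lists of the later day called it and no list of the earlier day did, and as lost in the reverse case. On day 8 against day 4, 7 of the 111 regions were gained, those at Rpl3, Rps10, Rps4x, Rpl34, Rps27 and Rpl38 among them, where 25.7% of all regions were. On day 21 against day 4, 8 were gained, at Rpl22, Rpl3, Rps4x, Rpl37rt, Rpl29, Rpl34, Rps15a and Rpl38, against 25.3% of all regions. None was lost in either comparison, and among all regions 0.00953% were lost on day 8 against day 4 and 0.00794% on day 21 against day 4. On day 21 against day 8, 1 was gained and none lost, against 1.02% and 1.09% of all regions. With lists of equal length, no region was gained and 5 were lost on either later day against day 4. That setting keeps the 19499 strongest peaks of each list and so removes weak peaks of the later days first. A gain of a weak region could hardly be seen in it, and whether list length accounts for the gains was not tested. When at least 50% of a region's bases had to be covered, the gains against day 4 were 15 on day 8 and 14 on day 21. No share over all regions is given for either setting, so these counts cannot be set against a background.

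The gained regions held no annotated start, or belonged to genes whose start is not in the promoter table. The region gained at Rps15a on day 21, which encodes a small subunit protein, lay inside the gene span at chr7:118113490-118114116 and had a fold enrichment, as the authors' peak caller gave it, of 3.63, 4.29 and 3.80 in the day 21 lists. At Rpl38, a large subunit gene known in mice for its role in the translation of Hox mRNAs, chr11:114669631-114670046 had folds of 2.95, 2.92 and 3.47 on day 8 and 3.17, 3.52 and 3.85 on day 21. At Rpl22, whose loss in mice impairs the development of alpha-beta T cells, chr4:152332955-152333284 was called in 2 of 3 day 8 lists and had folds of 6.72, 5.50 and 5.81 on day 21. Rpl37rt was the one gene whose gained region was its main region.

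To compare strength between days, regions were ranked by fold enrichment within each list, over the 15109 regions that all 9 lists called. A percentile of 100 is the strongest of these regions in its list. Ranks are relative, so a lower rank on a later day means that other open regions were stronger by comparison. Ranks cannot tell whether signal was lost in absolute terms. The main regions of the ribosomal protein genes had a median percentile of 67.2, 68.1 and 68.0 in the day 4 lists, 64.3, 64.5 and 62.6 in the day 8 lists, and 56.2, 55.2 and 54.8 in the day 21 lists. The days did not overlap, and the mean of the medians was 67.8 ± 0.516, 63.8 ± 1.09 and 55.4 ± 0.703 on days 4, 8 and 21 (SD, n = 3 lists). Over the main regions of all protein-coding genes (9018 regions), the medians averaged 63.0, 60.8 and 59.6. The number of the 81 regions at or above percentile 75 was 30, 25 and 19 on days 4, 8 and 21, and the number below percentile 25 was 5, 7 and 9.

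**Figure D2:**
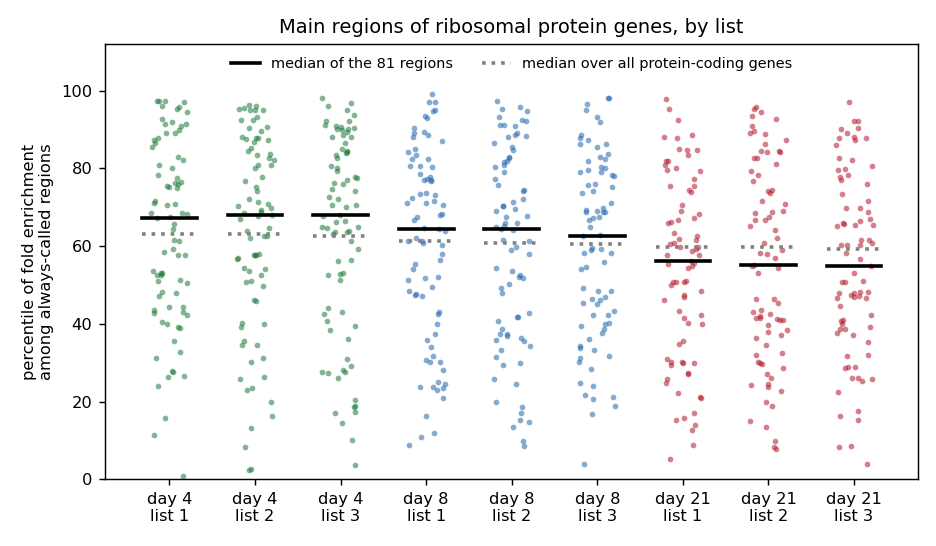
Percentile of fold enrichment of the 81 always-called main regions of ribosomal protein genes in each of the 9 lists (points), with their median (solid line) and the median over all protein-coding genes (dotted line). The median of the ribosomal protein genes was above that of all genes in every day 4 and day 8 list and below it in every day 21 list.

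Both subunits took part. The large subunit genes had a mean median percentile of 66.7 ± 3.32, 60.6 ± 1.34 and 51.6 ± 5.68 on days 4, 8 and 21, and the small subunit genes 65.1 ± 3.37, 64.1 ± 4.46 and 56.2 ± 1.08 (SD, n = 3 lists). The 3 stalk genes had 72.1 ± 5.52, 65.1 ± 7.41 and 57.8 ± 1.46, and 6 paralogs 75 ± 4.23, 77.2 ± 5.16 and 67.4 ± 7.0. The genes most like them in function differed among themselves. The main regions of 31 translation factor genes had median percentiles of 71.4, 57.0 and 52.8 on days 4, 8 and 21, and those of 26 ribosome biogenesis genes 71.2, 68.7 and 68.5. Mitochondrial ribosomal protein genes (64 regions) stood at 64.9 ± 3.47, 72.7 ± 0.484 and 72.0 ± 1.19.

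Differences between days were tested with limma on the ranks, turned into normal scores, over all 15109 regions, with Benjamini-Hochberg adjustment and a threshold of 0.05. A score difference of 1 is 1 standard deviation of the ranked regions. The same test was run on ranks of the summit pileup, the reads stacked at the peak summit before division by the local background, and its value is given beside a gene's fold call where the call was lost, the direction turned or the size moved by over 1.5 times. On day 21 against day 4, 21 of the 87 ribosomal protein regions ranked lower (24.1%) and 2 ranked higher, where 17.2% and 14.7% of all regions did. The median difference was -0.26, and 66 of 87 were negative. Regions within 1 kb of any gene end had the more similar shares of 22.3% lower and 7.88% higher with a median of -0.19, so the share of lower ribosomal protein regions was near that of gene ends in general. Ranked among gene-end regions alone, 14 of 85 were lower, against 15.1% of that set, and 4 were higher, against 12.6% of that set. The median difference of the ribosomal protein regions was then -0.09, with 50 of 85 negative. The lower calls comprised 9 main regions of the large subunit, 7 of the small subunit, 2 of the stalk and 2 of the paralogs. Without day 4 replicate 1 the higher calls numbered 4 (13.5% of all regions). Without day 4 replicate 2 or day 21 replicate 3 there was 1 (13.7% and 10.2% of all regions).

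On day 8 against day 4, 8 of the 87 regions ranked lower and 3 ranked higher, against 15.4% and 12.9% of all regions, so both shares were below the background. Gene-end regions had 18.5% lower and 8.76% higher. The higher count was 7 by pileup (9.68% of all regions), 7 with the replicate number as a block (13.1% of all regions), and 9 of 85 among gene-end regions alone (12.6% of that set). The lower ones included Rpl13a, Rpl34, Rpl35, Rpl36, Rps2 and Rpsa, and the higher ones were Rpl38, Rps19bp1 and Rps28. By pileup, 1 of the 8 lower regions was also lower, and Rpl38 and Rps19bp1 were also higher. No share called by both measures is given over all regions. Rps2 fell by 0.75 by fold (adjusted p = 0.0148, limma), and by pileup the direction turned, to 0.16 (adjusted p = 0.572). The lower count was 13 without day 4 replicate 2 (14.3% of all regions) and 4 without day 8 replicate 1 (10.7% of all regions). On day 21 against day 8, limma called 0 higher and 0 lower among the ribosomal protein regions, and 0.0199% higher and 0.0% lower among all regions. The smallest adjusted p among the ribosomal protein regions was 0.277 (limma). At an unadjusted p under 0.05, 15 were lower and 1 was higher, or 17.2% lower against 4.79% of all regions. The median difference was -0.15 with 67 of 87 negative, where gene-end regions had -0.07 with 60.4% negative. When ranked among gene-end regions alone, the ribosomal protein regions had a median of -0.08 with 58 of 85 negative.

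**Figure D3:**
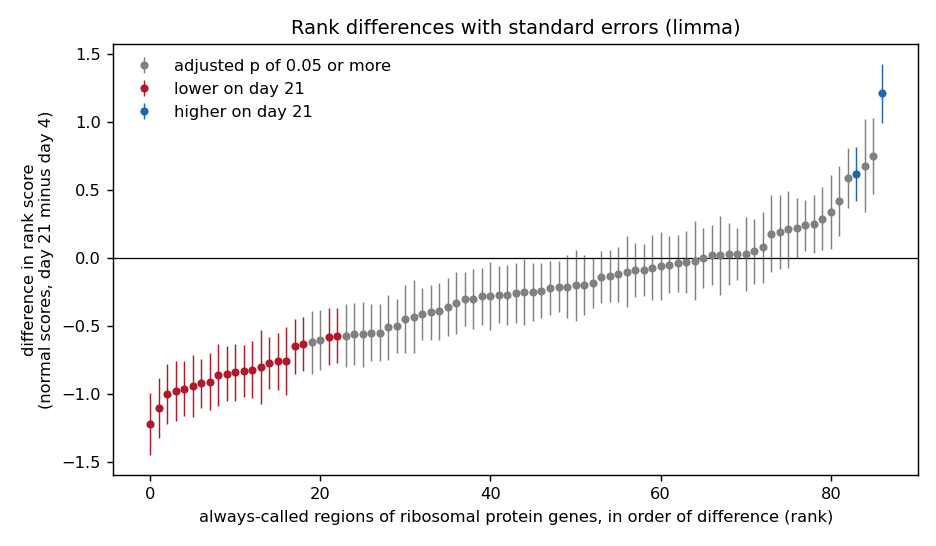
Difference in rank score (normal scores, day 21 minus day 4) with its standard error for the 87 always-called regions of ribosomal protein genes, in order of size. Red points are the 21 regions called lower on day 21, blue points the 2 called higher, and grey points those with an adjusted p of 0.05 or more.

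The stalk binds translation factors at the large subunit. Rplp0, which anchors the stalk, had a main region at chr5:115559132-115560072 with percentiles of 95.4, 92.4 and 90.6 on day 4, 83.4, 81.6 and 88.6 on day 8, and 56.2, 78.2 and 58.3 on day 21. All day 21 lists were below all others, and the score fell by 1.10 on day 21 against day 4 (SE 0.22, adjusted p = 0.00209, limma). Rplp2, which forms the lateral stalk with Rplp1, had 65.8, 74.2 and 76.2 on day 4, 60.3, 54.4 and 48.5 on day 8, and 47.4, 37.1 and 35.4 on day 21. It fell by 0.85 on day 21 against day 4 (SE 0.20, adjusted p = 0.00487), but this region also lies at Pidd1. The strongest summit in this region was at -396, -355 and -349 bases from the annotated Rplp2 start on day 4. On day 21 it was at -34, -46 and -41, so these ranks compare different points of a merged region. Rplp1, the partner of Rplp2, had 47.3, 68.1 and 68.0, then 73.4, 59.1 and 62.9, then 60.8, 59.0 and 60.2 in day order. Those lists overlapped, with a day 21 minus day 4 difference of -0.04 (adjusted p = 0.904).

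Among small subunit genes, Rps15a had the largest negative difference of all members. Its start region, chr7:118115680-118116564, had percentiles of 51.0, 25.9 and 31.1 on day 4, 16.3, 18.6 and 20.8 on day 8, and 5.14, 8.29 and 4.07 on day 21. The lists of the 3 days did not overlap, and the score fell by 1.22 on day 21 against day 4 (SE 0.23, adjusted p = 0.00139; by pileup it fell by 0.53, adjusted p = 0.0285). Rpsa encodes a small subunit protein that is also known as a laminin receptor precursor. Its region, chr9:120127327-120128448, had 90.9, 90.6 and 84.0 on day 4, 70.5, 71.4 and 67.3 on day 8, and 54.4, 68.7 and 56.7 on day 21. It fell by 0.96 on day 21 (SE 0.20, adjusted p = 0.00246) and by 0.70 on day 8 (SE 0.20, adjusted p = 0.0167), both against day 4, although without day 8 replicate 3 the day 8 difference had an adjusted p of 0.0588. By pileup the day 8 difference was -0.35 (adjusted p = 0.12). Rps27a, which encodes ubiquitin fused to a ribosomal protein, fell by 0.77 on day 21 against day 4 (adjusted p = 0.0076), in a region it shares with Clhc1, and by pileup the difference was -0.27 (adjusted p = 0.225).

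Rps26 went the other way. Its percentiles were 82.1, 87.8 and 91.1 on day 4, 95.0, 92.3 and 92.0 on day 8, and 95.3, 95.7 and 97.1 on day 21, with a day 21 minus day 4 difference of 0.62 (SE 0.20, adjusted p = 0.0273). The call was lost without day 21 replicate 2 or 3 or without day 4 replicate 1 or 2 (adjusted p = 0.0525 to 0.0963), and by pileup the difference was 0.10 (adjusted p = 0.714). Rps28 had 42.3, 39.3 and 43.1 on day 4, 72.4, 69.5 and 67.6 on day 8, and 59.3, 45.5 and 48.3 on day 21. It rose by 0.73 on day 8 against day 4 (SE 0.19, adjusted p = 0.00995), at a region it shares with Ndufa7. By pileup that difference was 0.18 (adjusted p = 0.606). Several well-known small subunit genes did not pass the test by fold in any comparison. Rps6, the substrate of S6 kinase downstream of mTORC1, had a day 21 minus day 4 difference of -0.56 (adjusted p = 0.0802; 0.03 without day 4 replicate 1). For Rps19, mutated in human Diamond-Blackfan anemia, it was -0.21 (adjusted p = 0.415), and for Rps14 it was -0.26 (adjusted p = 0.371). Rps3, with -0.12, and the X-linked Rps4x, with 0.18, had adjusted p-values of 0.68 and 0.658.

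Among large subunit genes, Rpl38 had the lowest mean rank of all members and the largest positive difference. Its main region, chr11:114668311-114669520, had percentiles of 0.751, 2.56 and 3.80 on day 4, 22.9, 19.8 and 24.8 on day 8, and 21.2, 24.6 and 15.2 on day 21. The strongest summit in this region lay 100 bases downstream of the annotated start in day 4 list 1. In every other list it lay 520 to 539 bases downstream, outside the sequence printed above, so day 4 list 1 was ranked at a different point. Both later days were above day 4 in every list, by 1.3 on day 8 (SE 0.22, adjusted p = 0.00121) and 1.21 on day 21 (SE 0.22, adjusted p = 0.00138). By pileup it was higher by 0.70 on day 8 (adjusted p = 0.0143), and the day 21 difference was 0.24 (adjusted p = 0.447). Rpl35, which sits by the exit of the peptide tunnel, had 40.0, 35.5 and 42.5 on day 4, 11, 8.59 and 18.8 on day 8, and 15.7, 7.79 and 8.26 on day 21. It fell by 0.89 on day 8 (adjusted p = 0.00776) and by 1.00 on day 21 (adjusted p = 0.00335), both against day 4. By pileup neither passed, with -0.39 on day 8 (adjusted p = 0.0862) and -0.24 on day 21 (adjusted p = 0.317), and its mean pileup percentiles were 87.2, 77.3 and 81.3 on days 4, 8 and 21.

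Rpl13a is also known for its part in translational silencing in human myeloid cells and for the small nucleolar RNAs in its introns. It had 85.4, 62.0 and 76.1 on day 4, 42.5, 35.9 and 58.2 on day 8, and 34.8, 38.5 and 47.0 on day 21. It fell by 0.94 on day 21 against day 4 (SE 0.23, adjusted p = 0.00688), and by 0.81 on day 8 (adjusted p = 0.0179), a call lost without day 4 replicate 1 or day 8 replicate 1 or 2 (adjusted p = 0.0581 to 0.0793). By pileup the day 21 difference was -0.28 (adjusted p = 0.29), and the day 8 direction turned, to 0.49 (adjusted p = 0.0477). Rpl34 fell by 0.77 on day 8 (adjusted p = 0.0209) and by 0.86 on day 21 (adjusted p = 0.0111), both against day 4. Without day 4 replicate 1 or day 8 replicate 1 or 2, its day 8 value had an adjusted p of 0.0524 to 0.0758, and without day 21 replicate 3 its day 21 value had one of 0.0618. By pileup its differences were -0.14 on day 8 (adjusted p = 0.559) and -0.33 on day 21 (adjusted p = 0.127). Rpl36, in a region that holds the start of Micos13 only, fell by 0.81 on day 8 against day 4 (adjusted p = 0.00925), and by pileup the difference was -0.10 (adjusted p = 0.713).

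Several other large subunit genes did not pass the test by fold in any comparison. For Rpl3, next to the peptidyl transferase center, the day 21 minus day 4 difference was -0.28 (adjusted p = 0.316), and for Rpl10, which joins late in assembly, it was -0.41 (adjusted p = 0.113). Rpl5 and Rpl11, which with 5S ribosomal RNA bind MDM2 when assembly fails, had -0.27 (adjusted p = 0.362) and 0.05 (adjusted p = 0.885). On day 8 against day 4, Rpl11 had 0.64 with an adjusted p of 0.0569, and 0.0193 without day 8 replicate 1. Rpl39, which lines the exit tunnel, had -0.45 (adjusted p = 0.178). By pileup, Rpl3 (-0.52, adjusted p = 0.0288), Rpl10 (-0.55, adjusted p = 0.0222) and Rpl11 (-0.57, adjusted p = 0.017) were lower on day 21 against day 8.

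The highest ranks over all lists belonged to Rpl31, Rpl27, Rpl22l1, Rps26 and Rpl30. Rpl31 had percentiles of 97.3, 95.0 and 96.9 on day 4, 97.0, 93.3 and 95.0 on day 8, and 92.5, 95.3 and 92.3 on day 21. Rpl27, whose promoter carries 2 adjoining ETS cores just upstream of the start, had 96.1, 92.4 and 92.1, then 99.2, 97.3 and 98.1, then 97.9, 89.5 and 92.2 on days 4, 8 and 21. The lowest mean ranks by fold were those of Rpl38, Rpl7, Rpl35a, Rps15a and Rpl35, so strongly and weakly ranked genes were found in both subunits.

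Rpl22 and its paralog Rpl22l1 both had high ranks. Rpl22l1 had 97.3, 95.1 and 93.8 on day 4, 97.2, 95.4 and 96.5 on day 8, and 81.9, 91.0 and 87.7 on day 21. Its day 21 minus day 4 difference was -0.57 (SE 0.20, adjusted p = 0.0425), a call lost in 7 of the 9 fits that left out 1 library (adjusted p = 0.0519 to 0.148). The direction turned to 0.13 by pileup (adjusted p = 0.587) and to 0.07 by −log10 p (adjusted p = 0.844). Rpl22 had 94.4, 93.2 and 88.0, then 61.4, 88.5 and 79.6, then 84.9, 92.6 and 82.1 on days 4, 8 and 21, and its day 8 minus day 4 difference was -0.65 (adjusted p = 0.0634, and 0.0336 without day 8 replicate 2; by pileup it fell by 0.55, adjusted p = 0.0096). Rps19bp1, which encodes a binding partner of Rps19 rather than a ribosomal protein, had 57.7, 8.39 and 10.2 on day 4 and 62.0, 41.7 and 68.8 on day 8. Its day 8 difference of 1.01 (adjusted p = 0.036) rested on single libraries, with an adjusted p of 0.0501 to 0.15 without day 21 replicate 3, day 4 replicate 2 or 3, or day 8 replicate 1 or 3. Rps27l, a p53 target, and Rpl3l, known from striated muscle, had day 21 minus day 4 differences of 0.02 (adjusted p = 0.966) and 0.34 (adjusted p = 0.362), and the Rpl3l region holds the start of Msrb1 only.

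**Figure D4:**
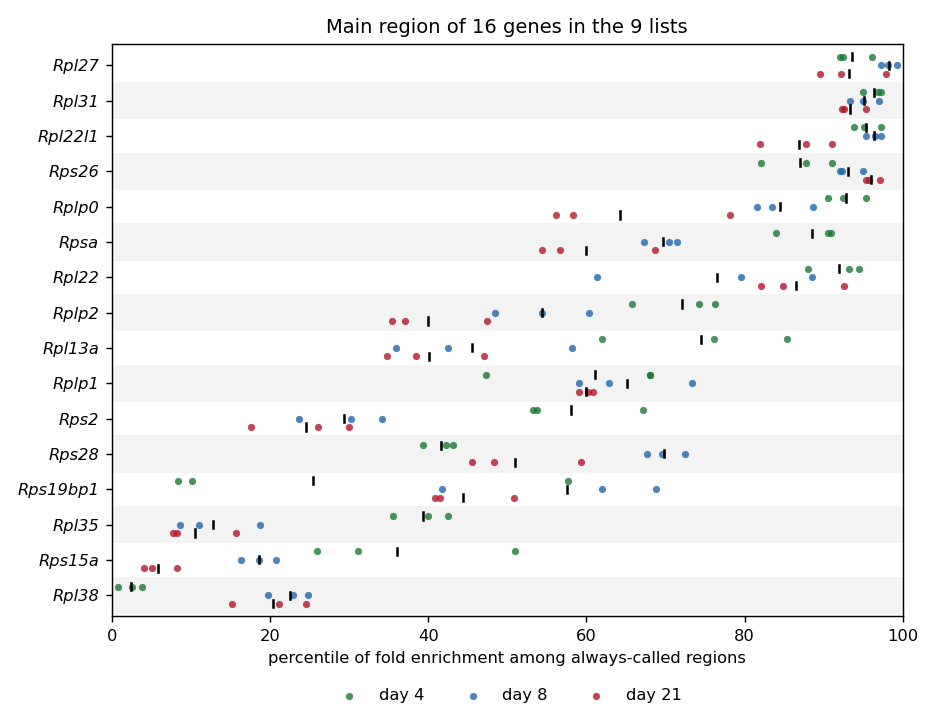
Percentile of fold enrichment of the main region of 16 genes in the 9 lists (points, 3 per day; black ticks are day means). Rplp0, Rpsa, Rpl13a, Rpl35 and Rps15a have their day 4 lists to the right of their day 21 lists, and Rpl38 has its day 4 lists at the far left, from 0.751 to 3.80.

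Fold enrichment is the summit pileup over the local background, so each was ranked on its own over the same 15109 regions. By summit pileup, the medians of the ribosomal protein main regions were 65.6, 67.2 and 68.8 on day 4, 71.5, 72.2 and 70.9 on day 8, and 56.8, 65.6 and 62.3 on day 21. Day 8 was thus the highest day by pileup, while by fold it lay between the other days. The medians of local background were 64.6 ± 3.37, 59.7 ± 1.20 and 57.4 ± 0.934 on days 4, 8 and 21 (SD, n = 3 lists), against 54.0, 52.8 and 51.3 over all protein-coding genes. In pileup, mitochondrial ribosomal protein genes had 65.3 ± 2.85, 59.3 ± 3.11 and 57.3 ± 0.925.

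On day 21 against day 8, 22 of the 87 regions ranked lower by pileup (25.3%) and 3 higher, where 8.63% and 9.70% of all regions did. Regions at gene ends had 12% lower and 6.36% higher, and the median difference was -0.33 for ribosomal protein regions and -0.11 for gene ends. The 3 higher ones were Rpl7, Rps13 and Rps23. On day 8 against day 4, 5 ranked lower and 7 higher by pileup, against 9.10% and 9.68% of all regions. On day 21 against day 4, 12 ranked lower and 1 higher, against 8.77% and 10.0% of all regions and 10.3% and 4.72% of gene-end regions. Of the 21 regions lower by fold on day 21 against day 4, 9 were also lower by pileup, those at Rpl23a, Rpl36al, Rplp0, Rplp2, Rps15a, Rps29 and Rpsa among them. Neither of the 2 higher by fold, Rpl38 and Rps26, was higher by pileup in that comparison. Both measures come from the same peaks and are not independent. The share called by both measures is not given over all regions, so these overlaps cannot be set against a background.

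Single genes showed how the measures part. Rplp0 had pileup percentiles of 88.6, 87.4 and 85.5 on day 4, 82.4, 82.7 and 89.0 on day 8, and 56.8, 73.4 and 57.0 on day 21. It fell by 0.71 on day 21 against day 8 (adjusted p = 0.00241) and by 0.81 on day 21 against day 4 (adjusted p = 0.000332). Rpl27 had 78.7, 80.2 and 68.8, then 95.0, 92.0 and 92.3, then 88.6, 66.9 and 67.7 on days 4, 8 and 21, so it rose by 0.78 on day 8 against day 4 (adjusted p = 0.00112) and fell by 0.79 on day 21 against day 8 (adjusted p = 0.00151). Rps19 had the same course by pileup, with 0.62 on day 8 against day 4 (adjusted p = 0.00527) and -0.66 on day 21 against day 8 (adjusted p = 0.00407).

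Rpl13a had pileup percentiles of 94.5, 85.2 and 93.9 on day 4, 95.9, 94.5 and 99.0 on day 8, and 80.3, 82.9 and 94.0 on day 21. By pileup it was thus higher on day 8 than on day 4, where by fold it was lower. Rps13 rose by pileup on day 21, to 97.6, 98.3 and 98.5, against 94.3, 94.1 and 94.2 on day 8 (difference 0.52, adjusted p = 0.013). By fold its day 21 minus day 8 difference was -0.02 (adjusted p = 0.988).

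**Figure D5:**
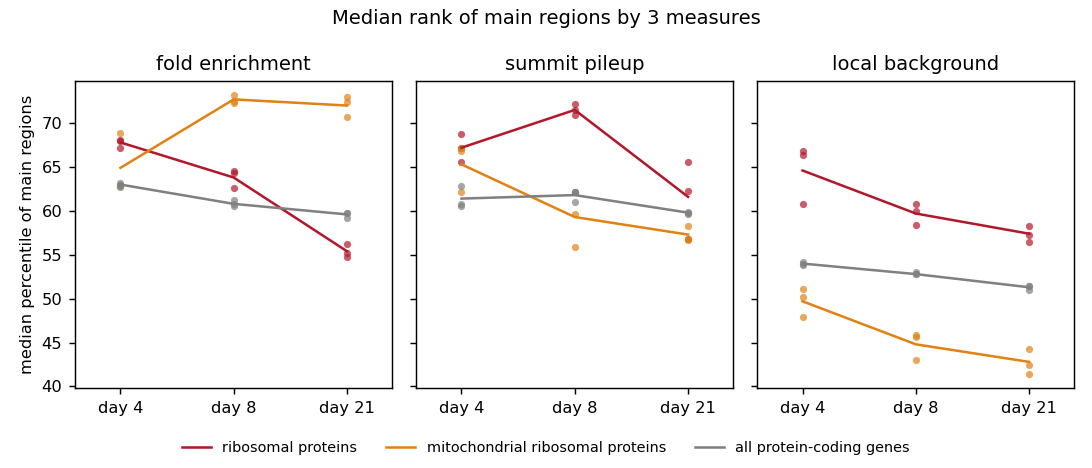
Median percentile of main regions on days 4, 8 and 21 by fold enrichment, summit pileup and local background, for ribosomal protein genes, mitochondrial ribosomal protein genes and all protein-coding genes (points are lists, lines join day means). By pileup the ribosomal protein genes are highest on day 8, at 71.5, and by fold on day 4, at 67.8.

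Rank differences were also set beside the promoter motifs. Among the 58 genes with an annotated start in their main region, the median day 21 minus day 4 fold-rank difference was -0.33 for the 26 with a start tract and -0.12 for the 32 without. It was -0.14 for the 29 with CCGGAA and -0.25 for the 29 without, and -0.30 for the 37 with GGGCGG and -0.05 for the 21 without. For TATAAA or TATATA it was -0.41 with (11 genes) and -0.18 without (47), for CCATNTT -0.26 with (18) and -0.23 without (40), for CACGTG -0.70 with (4) and -0.22 without (54), and for GCATGCG -0.17 with (4) and -0.23 without (54). These are descriptions over genes that share libraries, with no test.

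The sorted cells were checked against markers. Every one of 10 CD8 T cell markers had a called region in all 9 lists. Of 14 regions at 6 B cell markers, 0 to 1 were called per list on day 4, 9 to 10 on day 8 and 8 to 12 on day 21, with no region at Ms4a1. Of 16 at endothelial and stromal markers, 1 to 2, 9 to 10 and 9 to 12 were called, with none at Cdh5, and of 15 at myeloid and dendritic markers 4, then 9 to 12, then 10 to 13, with none at Lyz2. Of 7 at melanocyte markers, 4 to 5, 5 to 6 and 7 were called, with none at Tyr or Sox10. CD8 T cell marker regions were called in 16 to 20, 30 to 32 and 30 to 35 of 43 cases in the same order. The mean of each of these counts was higher on days 8 and 21, when the lists were longer. Relative to day 4, the rise was steeper for B cell, endothelial and stromal, and myeloid and dendritic markers than for CD8 T cell markers. It was less steep for melanocyte markers (means of 4.33, 5.33 and 7.0 in day order). Over all regions in or near protein-coding genes, the mean count per list also rose more steeply, with 14600, 32000 and 31600. Itgam, Flt3, Xcr1, Vwf, Mitf and Pmel already had a called region in every day 4 list. Whether list length or other cells account for these counts was not tested, nor was the part of other cells in the ranks.

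The same-day lists were closer to each other than reads counted at random would be. Over the regions all 9 lists called, chi-square per region between summit pileups was 0.417 to 0.444 in the 9 same-day pairs and 0.965 to 1.19 in the 27 pairs of different days. A summit is a maximum over a region and not a single count, and how far that lowers the value was not tested. No pair held identical values, and each list was kept as 1 of 3 for its day.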

How the data were processed

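ATAC-seq peaks were analysed from 9 lists, 3 each for days 4, 8 and 21. The authors called peaks per library. Tools named in the submitters' processing notes were MACS2, deepTools 2.0, Picard and BWA 0.7.15, with the build mm10. Read filters and peak settings were not given in any source used here. The deposited files give per peak a score, a fold enrichment (ratio to local background) at the summit, −log10 of p and q, and a summit offset (bases). All q were at most 0.05.

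Peaks on chromosomes 1 to 19 and X (353295) were merged. Main tests used limma 3.58.1 (trend, robust; R 4.3.3) with 1 term per day on normal scores of fold ranks (6 residual degrees of freedom). Whole summit pileups were recovered from the deposited fold and −log10 p (tolerance 0.001) for at least 99.995% of peaks per list. Genes and promoters came from RefSeq GRCm38.p6, and Python 3.11.15 was used elsewhere. The fit was tested on simulated data. Alternatives changed the ranked value, region set, threshold, list length, block and libraries. Members and lists were chosen with earlier results of these data known. Genes named were fixed members, up to 5 with the largest called differences per direction and comparison, those without a region, the 5 highest and lowest in mean rank, and those with gained regions. Others were named after their values were seen (chosen for neighbours, called lists and the second measure). Some items that the rule names are not reported here.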

Additional observations from a re-analysis of the deposited data

How the results depend on the processing

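Counts of ribosomal protein regions moved with the value ranked, the set of regions and the length of the lists. Ranked by −log10 p, day 8 against day 4 gave 5 higher and 3 lower, day 21 against day 8 gave 6 lower, and day 21 against day 4 gave 11 lower. By summit pileup the counts were 7 higher and 5 lower, 3 higher and 22 lower, and 1 higher and 12 lower in the same order, against 3 and 8, 0 and 0, and 2 and 21 by fold. Over all regions on day 21 against day 8, 1465 ranked higher and 1304 lower by pileup, and 338 and 206 by −log10 p, against 3 and 0 by fold. Over all regions ranked lower, day 8 against day 4 gave 2332 by fold, 1101 by −log10 p and 1375 by pileup, and day 21 against day 4 gave 2604, 1150 and 1325. Over all regions ranked higher on day 8 against day 4, −log10 p gave 1270 against 1955 by fold, and on day 21 against day 4, 1369 against 2227. Ranked among gene-end regions alone, 9 of 85 were higher on day 8 and 4 on day 21, against day 4, where 12.6% of that set were in either comparison. With lists of equal length, 0 regions were gained and 5 lost on day 8 or day 21 against day 4, and 0 gained on day 21 against day 8. With at least 50% of a region covered, 15 and 14 were gained on days 8 and 21 against day 4. For neither of these settings is a share over all regions given.

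Leaving out 1 library gave 2 to 4 higher and 4 to 13 lower on day 8 against day 4. Over all regions, 8.81% to 12.6% were then higher and 9.66% to 14.8% lower. On day 21 against day 4 it gave 1 to 4 higher and 16 to 23 lower, against 10.2% to 14.1% and 11.4% to 16.6% of all regions. On day 21 against day 8, 0 to 1 were lost. Gains were 7 to 10 on day 8 and 8 to 9 on day 21, against day 4. For gains and losses in these fits, no share over all regions is given. Among genes named by the rules above, and not those named after their values were seen, the direction changed for 5 values that passed the test in either setting. These were Rpl13a on day 8 against day 4 (0.10 by −log10 p, 0.49 by pileup), Rpl22l1 on day 21 against day 4 (0.07 by −log10 p, 0.13 by pileup) and Rps19 on day 8 against day 4 (0.62 by pileup). The cause was not tested. Of the other values of genes named by those rules, 1623 kept direction and side of the threshold, 111 changed sign with no call in either setting, 56 lost a call and 35 gained one. Between days, deviations from the day mean had correlations of -0.0022 to 0.0312 in same-numbered libraries and -0.0247 to 0.0209 in differently numbered ones. Any pairing by number was thus weak. The highest same-numbered values were those of day 8 with day 21 in replicate 3 (0.0312) and of day 4 with day 21 in replicate 3 (0.0273). With the replicate block, 7 of 87 higher and 9 lower were called on day 8 against day 4, where 13.1% and 14.7% of all regions were. On day 21 against day 8 it called 0 and 0, and 1 and 0 of all 15109 regions. On day 21 against day 4 it called 3 higher and 20 lower. Of all 15109 regions, 2259 were then higher, and 16.8% were lower. Peak lists hold no read totals, so depth limits which weak regions were called by an unknown amount.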
